A study of Mus musculus with 10 samples.

Results

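Fatty acid oxidation and ketogenesis were examined in the jejunum of mice at postnatal day 5 through 32 genes chosen by name, all of which were found among the 24062 gene symbols counted in each library and all of which were tested. There were 5 libraries of WT mice, which are wild-type C57BL/6 animals, and 5 of KSR23 mice, which are C57BL/6 animals that make interleukin-23 (IL-23). In KSR23 mice a cassette for both IL-23 subunits, placed in the ROSA26 locus behind a STOP sequence flanked by loxP sites, is released by a cre recombinase under the keratin 14 (K14) promoter. The cre is thus driven by a promoter of keratinocytes and not of the intestine, and the labels name no treatment for either group. RNA of whole jejunum was sequenced, so fewer cells of a type and less RNA per cell cannot be told apart. The study calls the libraries biological replicates, the labels do not tie them to single mice, and p-values measure the spread between these libraries.

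Fatty acids are activated to acyl-CoA, carried into mitochondria by the carnitine shuttle and shortened in repeated rounds by a dehydrogenase, a hydratase, a second dehydrogenase and a thiolase, while peroxisomes carry out a parallel route for very long and branched chains. The acetyl-CoA that results can be burned in the tricarboxylic acid cycle or turned into ketone bodies. Milk is rich in fat, and the suckling intestine of rodents is known for expressing both oxidation and ketogenesis enzymes, many of them under the nuclear receptor PPAR-alpha and its coactivator PGC-1-alpha.

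To determine how these genes differed between the groups, counts were compared across the 17632 genes that reached 5 counts in some library, with the likelihood ratio test of edgeR and Benjamini-Hochberg adjustment, and genes at an adjusted p under 0.05 were called. Of the 32 members, 9 were called lower in KSR23 and 0 were called higher. Among all genes tested, 8.76% were called lower and 9.73% higher. The 9 members were Acaa1b, Acot1, Acat1, Ppargc1a, Etfb, Acaa2, Acot2, Eci2 and Hadhb, and the quasi-likelihood F test of edgeR, which called 6.91% of all genes lower and 8.47% higher, called the same 9. DESeq2 called 10 lower and 0 higher, against 10.2% of all genes lower and 10.9% higher. At an unadjusted p under 0.05 by the likelihood ratio test, 14 members were lower and 0 higher, against 14% of all genes lower and 15.9% higher. The fitted log2 fold change of KSR23 over WT was negative for 27 members and positive for 5, with a median of -0.50 against 0.03 over all genes tested.

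The levels of 7 members (Acat1, Ppargc1a, Acaa2, Acot2, Eci2, Hadhb and Hadh) were lower in each KSR23 library than in any WT library, against 6.99% of all genes, and 0 members were higher in each KSR23 library than in any WT library, against 7.41%. The members together took 1.86, 1.83, 1.40, 1.85 and 1.77% of all counts in the WT libraries (in replicate order), and 0.907, 1.28, 1.26, 1.0 and 1.18% in the KSR23 libraries. The 2 sets of shares did not overlap.

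**Figure D1:**
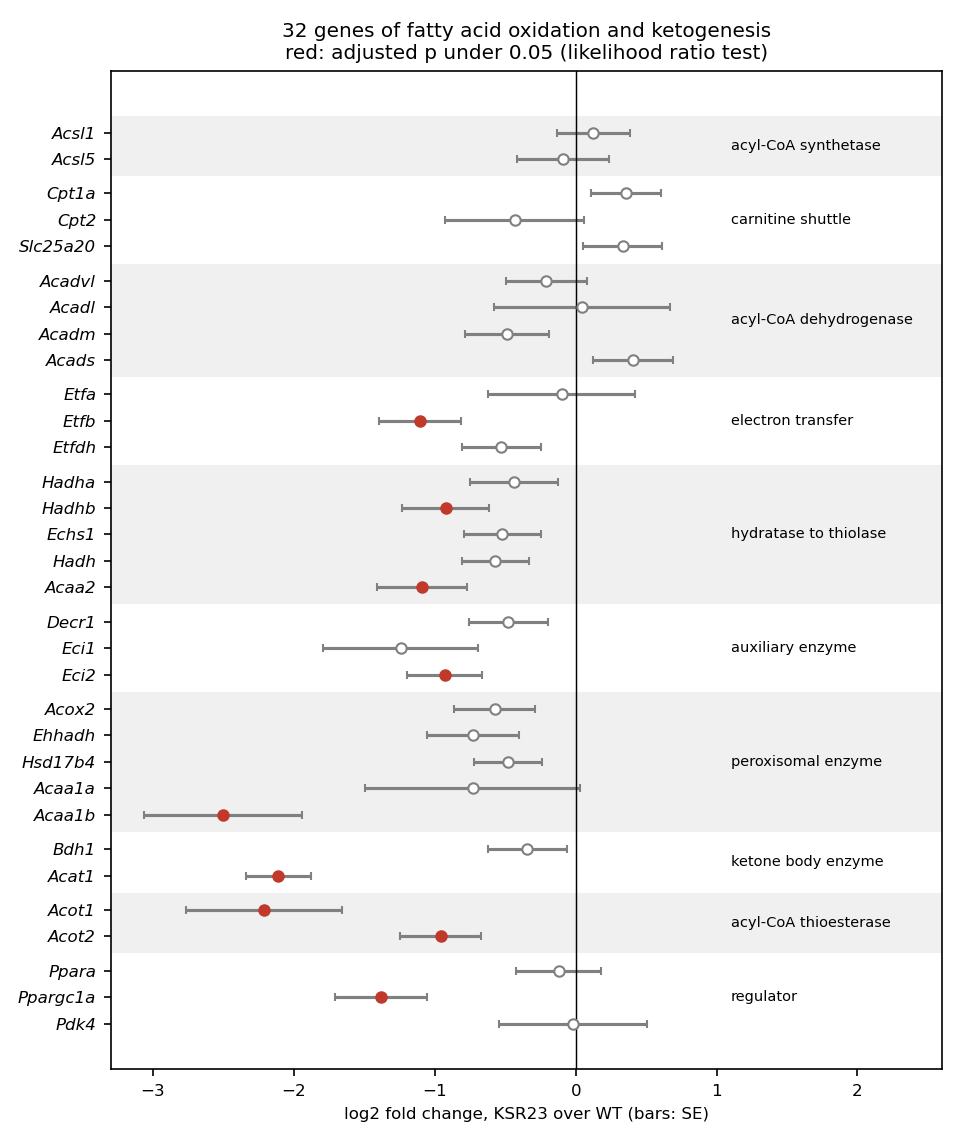
Log2 fold change of KSR23 over WT (horizontal axis, log2 scale) for the 32 members, grouped by role, with bars showing the standard error (SE) of the model and filled red points marking adjusted p under 0.05 by the likelihood ratio test of edgeR with 5 libraries per group. The 9 filled points all lie below zero, from -2.50 for Acaa1b to -0.92 for Hadhb, and the synthetases and carnitine shuttle hold none.

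The libraries held 25.5 to 32 M counts in WT and 31.2 to 60.9 M in KSR23, where M is 1e+06 (29.0 ± 2.97 M against 43.2 ± 12.9 M, SD, n = 5 each, two-sided exact permutation p = 0.0238). Il12b, which encodes the p40 subunit of IL-23, was called higher in KSR23 at low level (0.109 ± 0.0624 against 0.553 ± 0.335 counts per 1e+06 of the total, CPM, SD, n = 5 each, adjusted p = 0.00364), and the p19 subunit gene Il23a was not called (0.230 ± 0.183 against 0.450 ± 0.100 CPM, adjusted p = 0.27). Replicates 4 and 5 of both groups were the highest or the lowest library of their group at 8.53 to 18.4% of the 9737 genes with a mean above 5 CPM, against 45.7 to 75.6% for replicates 1 to 3. Exchangeable libraries would each be an extreme at 40% of genes. P-values from 5 libraries per group take the libraries as exchangeable, so they may be too small. Over the members, replicates 4 and 5 were an extreme at 1 to 4 of 32 genes and replicates 1 to 3 at 12 to 25. With replicates 1 to 3 alone, 30 of 32 members had the same sign as with all libraries, but 1 member, Acat1, was called lower by the likelihood ratio test (1.35% of all genes were lower and 2.01% higher) and 0 members were called by the quasi-likelihood test (0.812% of all genes in either direction), with 4 members lower and 0 higher at an unadjusted p under 0.05 by each test. At that unadjusted p, 5.89% of all genes were lower and 7.35% higher by the likelihood ratio test, and 4.79% lower and 7.02% higher by the quasi-likelihood test.

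Markers of other cell types were measured beside these changes. The summed level of 8 epithelial markers (Epcam, Vil1, Krt8 and others) was 2487 to 4237 CPM in WT and 4502 to 7962 CPM in KSR23, with no overlap, and 2 of the 8 (Cdh1 and Krt20) were called higher, of which Krt20 alone by the quasi-likelihood test. Krt20 held 323 to 388 CPM in WT and 568 to 2276 CPM in KSR23, and without it the sums overlapped (2099 to 3914 against 2981 to 5808 CPM). Epcam had a log2 fold change of -0.44 (adjusted p = 0.686). Of 6 hepatocyte markers, summed at 167 to 313 CPM in WT and 28.4 to 35.9 CPM in KSR23, 2 were called lower and 2 higher (1 and 2 by the quasi-likelihood test). Most of that sum in WT was Serpina1a (305, 166, 258, 233 and 288 CPM in WT and 14.1, 1.71, 9.62, 7.90 and 6.77 CPM in KSR23, replicates 1 to 5), while albumin itself (Alb) averaged 1.98 CPM in WT and 0.448 CPM in KSR23. Without Serpina1a the sum was higher in KSR23 with no overlap (1.56 to 7.71 CPM in WT and 16.8 to 31.7 CPM in KSR23). The 2 called higher were Hpx (log2 fold change 5.03) and Fgb (3.47). Of 6 white fat markers (76.7 to 158 CPM in WT, 29.7 to 71.0 CPM in KSR23) the defining genes Adipoq, Lep, Retn and Cfd had at most 3 counts in every library, and Fabp4 made up nearly all of the sum. The 4 brown fat markers summed to 16.9 to 31.5 CPM in WT and 5.79 to 11.1 CPM in KSR23, with no overlap. Both of those tested were called lower, Cidea (-1.46, adjusted p = 0.000274) and Ppargc1a, which is also a member, while the defining gene Ucp1 had at most 3 counts in every library. The 5 pancreatic acinar markers summed to 19.3 to 113 CPM in WT and 6.23 to 15.7 CPM in KSR23, with 3 of 4 tested called lower (1, Cela1, by the quasi-likelihood test) and Pnlip at or under 3 counts in every library. Cela1 made up 87.3 to 99.7% of that sum in each library. Smooth muscle (1490 to 3442 against 1581 to 2140 CPM), striated muscle (8.27 to 13.7 against 7.85 to 13.5 CPM), leukocyte (172 to 195 against 123 to 199 CPM) and enteric neuron and glia markers (14.2 to 25.1 against 9.29 to 19.6 CPM) overlapped between WT and KSR23, with Acta2 of smooth muscle called lower and Itgam of leukocytes called higher, each by the likelihood ratio test only. The part of these cell types in the members' levels was not tested.

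The entry of fatty acids showed no called member. Acsl5, one of the synthetases that activate long-chain fatty acids, stood at 5635, 3799, 3669, 4664 and 5385 CPM in WT replicates 1 to 5 and at 2169.8, 4544, 6684, 2911 and 5411 CPM in KSR23. Its fitted difference between the groups was -0.09 on the log2 scale (adjusted p = 0.888, SE 0.33). The KSR23 values of Acsl5 ran from below the lowest to above the highest WT value. Acsl1, another long-chain synthetase, ranged from 63.6 to 103 CPM in WT and from 66.9 to 99.7 CPM in KSR23 (log2 fold change 0.13, 95% interval -0.39 to 0.64). Cpt1a, which makes acylcarnitine at the outer mitochondrial membrane and is the rate-setting entry step, held 239.7, 292, 186, 281 and 236 CPM in WT and 245, 394, 312, 279 and 353 CPM in KSR23 (log2 fold change 0.36, 95% interval -0.13 to 0.85, adjusted p = 0.348). The groups overlapped for Cpt1a, with 3 of 5 KSR23 libraries above the highest WT library. Slc25a20, the carnitine-acylcarnitine carrier of the inner membrane, ranged from 288 to 460.3 CPM in WT and from 327 to 695 CPM in KSR23 (log2 fold change 0.33, 95% interval -0.22 to 0.89). Cpt2, which returns the acyl group to CoA inside the mitochondrion, varied from 59.4 to 316 CPM within WT and from 41.9 to 236 CPM within KSR23 (log2 fold change -0.43, 95% interval -1.40 to 0.54).

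The acyl-CoA dehydrogenases, which take the first oxidation step for chains of different length, also held no called member. Acadvl, for very long chains, ranged from 408 to 585 CPM in WT and from 232 to 551 CPM in KSR23 (log2 fold change -0.21, SE 0.29). Acadm, for medium chains, ranged from 179 to 217 CPM in WT and from 75.9 to 204 CPM in KSR23 (-0.49, SE 0.30, adjusted p = 0.265). Acads, for short chains, ranged from 24.8 to 51.2 CPM in WT and from 38.1 to 57.4 CPM in KSR23 and had the largest positive log2 fold change of the members (0.41, SE 0.28, adjusted p = 0.346). All 3 overlapped between the groups. Acadl, for long chains, held 60.1, 596, 825, 352 and 215 CPM in WT and 777, 407, 98.5, 604 and 225 CPM in KSR23, so that the libraries of 1 group differed by more than the group means (log2 fold change 0.04, SE 0.62). The 95% interval of the Acadl difference, -1.18 to 1.27 on the log2 scale, spans changes of more than 2-fold in either direction.

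Of the electron transfer flavoprotein genes, Etfb fell and its partner Etfa was not called. The protein takes electrons from the acyl-CoA dehydrogenases and consists of an alpha subunit (Etfa) and a beta subunit (Etfb). Etfb was measured at 1267, 795, 1165, 1016 and 1203 CPM in WT and at 354, 458, 801, 362 and 556 CPM in KSR23. KSR23 replicate 3 lay just above WT replicate 2, and the other KSR23 libraries lay below all WT libraries. The log2 fold change was -1.11 (SE 0.29, adjusted p = 0.00216 by the likelihood ratio and 0.0142 by the quasi-likelihood test). With replicates 1 to 3 alone it was -0.97 with an adjusted p of 0.42. On chromosome 7 (43444083 to 43457800, plus strand, build mm10), 52.5% of the 75-base stretches of the Etfb exons also occur in Gm45233, a gene model that overlaps it on the same strand and is not among the counted symbols. Etfa varied from 98.8 to 495 CPM within WT and from 62.1 to 539.7 CPM within KSR23 (log2 fold change -0.10, 95% interval -1.13 to 0.93). Etfdh, which hands the electrons to ubiquinone, ranged from 288 to 449 CPM in WT and from 163 to 331 CPM in KSR23 (-0.53, SE 0.28, adjusted p = 0.187).

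The enzymes of the later steps of the mitochondrial cycle had negative log2 fold changes for all 5 members, and 2 were called. Acaa2, the thiolase that splits off acetyl-CoA in the last step, was measured at 3080.0, 2531, 2454, 2809 and 2931 CPM in WT and at 615, 1436, 1974, 874 and 1580.0 CPM in KSR23. All WT libraries were above all KSR23 libraries. Acaa2 fell by 1.09 on the log2 scale (SE 0.32, adjusted p = 0.00678, and 0.0286 by the quasi-likelihood test). Per kilobase of merged exon it had the highest mean CPM of the members in WT (1821 CPM per kb), ahead of Etfb with 1220 and Acsl5 with 1091 CPM per kb. Hadh, the 3-hydroxyacyl-CoA dehydrogenase for medium and short chains, was measured at 1367, 1555, 1380.2, 1498 and 1367 CPM in WT and at 764, 987, 1248, 789 and 1041 CPM in KSR23. Its groups did not overlap, yet it missed the threshold (log2 fold change -0.57, SE 0.24, adjusted p = 0.0752, and 0.0714 by the quasi-likelihood test). Hadh was called lower without KSR23 replicate 3 (-0.68, adjusted p = 0.0201) and in DESeq2 with all libraries (-0.60, adjusted p = 0.0142), while over all alternatives its adjusted p ran from 0.00197 to 0.752. Echs1, the short-chain enoyl-CoA hydratase, ranged from 203 to 250.1 CPM in WT and from 106 to 225 CPM in KSR23 (-0.52, SE 0.27, adjusted p = 0.182), with KSR23 replicate 3 inside the WT range. Without that library Echs1 was called lower (-0.69, adjusted p = 0.0419), while over all alternatives its adjusted p ran from 0.00273 to 0.845.

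**Figure D2:**
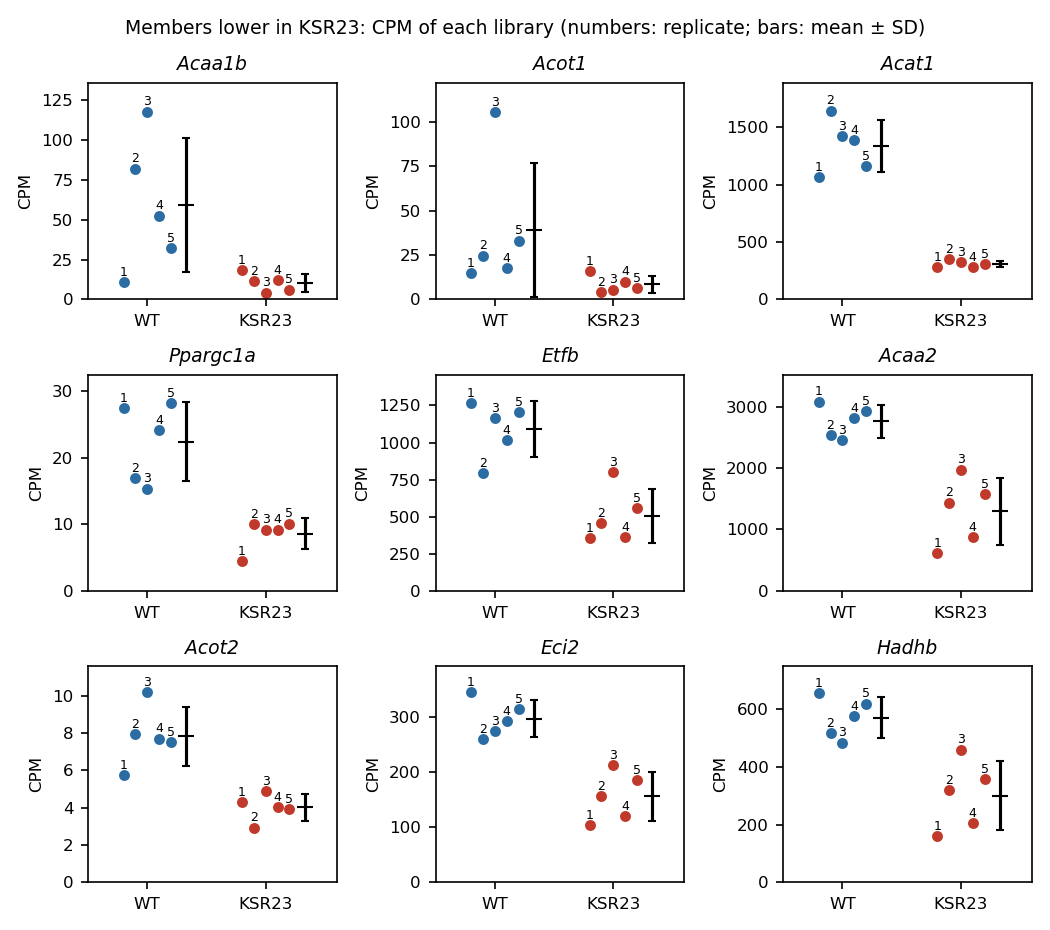
CPM (vertical axes, linear, from 0) of the 9 members called lower in KSR23, with 1 point for each library marked by its replicate number, and the mean ± SD beside each group (n = 5). Replicate 3 is the highest KSR23 library in 5 panels (Etfb, Acaa2, Acot2, Eci2 and Hadhb), and the groups overlap in the panels of Acaa1b, Acot1 and Etfb.

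Hadha and Hadhb encode the alpha and beta subunits of the mitochondrial trifunctional protein, which carries out the last 3 steps of the cycle for long chains. Hadhb was measured at 656, 515, 484, 575 and 619 CPM in WT and at 159.8, 320.0, 459.8, 204 and 358 CPM in KSR23, with no overlap. It fell by 0.92 on the log2 scale (SE 0.31, adjusted p = 0.0211, and 0.0417 by the quasi-likelihood test). This call was lost when WT replicate 1, 4 or 5 or KSR23 replicate 1, 2 or 4 was left out (adjusted p from 0.0515 to 0.0963). Hadha was measured at 422, 354, 237, 368 and 385 CPM in WT and at 153, 230.0, 391, 193 and 337 CPM in KSR23, and 2 KSR23 libraries, replicates 3 and 5, lay within the WT range (-0.44, SE 0.31, adjusted p = 0.361). The genes lie head to head on chromosome 5, Hadha on the minus strand (30118304 to 30155162) and Hadhb on the plus strand (30155248 to 30184593), with 85 bases between them in the GENCODE annotation of mm10. Their RefSeq promoter windows (250 bases before to 50 after the annotated start, build GRCm38.p6) share 228 bases, and both are shown because the members divide this stretch of DNA. The levels of Hadha and Hadhb ranked the libraries in the same order within each group. Acaa2, which does not share these windows, ranked them in that order too, so the order was not particular to this pair. The capitals mark the TTCNNNGAA match of each window, a spacing that STAT proteins are known to bind, and it is the same match read on opposite strands.
Hadha, chr5:30154931-30155230, minus strand: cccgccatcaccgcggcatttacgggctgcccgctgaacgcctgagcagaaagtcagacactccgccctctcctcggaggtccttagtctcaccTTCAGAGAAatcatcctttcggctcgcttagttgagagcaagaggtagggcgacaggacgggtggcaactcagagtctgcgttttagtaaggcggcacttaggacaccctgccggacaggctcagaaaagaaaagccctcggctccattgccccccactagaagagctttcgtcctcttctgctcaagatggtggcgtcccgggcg
Hadhb, chr5:30155003-30155302, plus strand: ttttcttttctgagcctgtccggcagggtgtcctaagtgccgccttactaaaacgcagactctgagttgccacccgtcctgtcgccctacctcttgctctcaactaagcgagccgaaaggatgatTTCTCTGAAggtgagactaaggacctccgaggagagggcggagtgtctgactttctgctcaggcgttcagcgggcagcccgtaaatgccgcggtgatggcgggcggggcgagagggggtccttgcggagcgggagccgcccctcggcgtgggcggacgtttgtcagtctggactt
The letters TTCNNNGAA, searched on both strands, were in 3 of 31 windows of the members (Cpt2, Hadha and Hadhb) and in 8.30% of 32851 windows of all genes. The nuclear receptor half-site AGGTCA was in 4 of 31 (Acadm, Acadvl, Cpt1a and Echs1) and in 16.3% of all windows, and the direct repeat AGGTCANAGGTCA, which holds that half-site, was in 0 of 31 and in 0.04% of all windows. Windows were found for 28 of the 32 members, with more than 1 window for some genes. A match is a description of the letters and not a site of binding.

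The balance of the trifunctional subunits shifted within libraries. The ratio of Hadhb to Hadha CPM was 1.56, 1.45, 2.04, 1.56 and 1.61 in the WT libraries and 1.05, 1.39, 1.18, 1.06 and 1.06 in KSR23. The ratio was lower in each KSR23 library than in any WT library, and the difference of the mean log2 ratios was -0.52 (two-sided exact permutation p = 0.00794, the smallest that 5 against 5 can give, adjusted p = 0.0278 over 7 pairs). Of the 75-base stretches of Hadhb, 51.0% also occur in the pseudogenes Gm13910 and Gm9108, whose reads would enter no gene, while for Hadha 0.025% are shared. The 7 pairs of related members were chosen after their values were seen, and neither the p-values nor their adjustment cover that choice. The ratio of Acaa1b to Acaa1a, the peroxisomal thiolases, was 1.64, 1.23, 1.25, 1.22 and 1.40 in WT and 0.241, 1.14, 0.721, 0.281 and 1.03 in KSR23. It too was lower in each KSR23 library (difference of the mean log2 ratios -1.24, exact permutation p = 0.00794, adjusted p = 0.0278). The other 5 ratios overlapped between the groups, with exact permutation p from 0.0714 for Acot1 over Acot2 (adjusted p = 0.167) to 0.817 for Eci2 over Eci1.

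**Figure D3:**
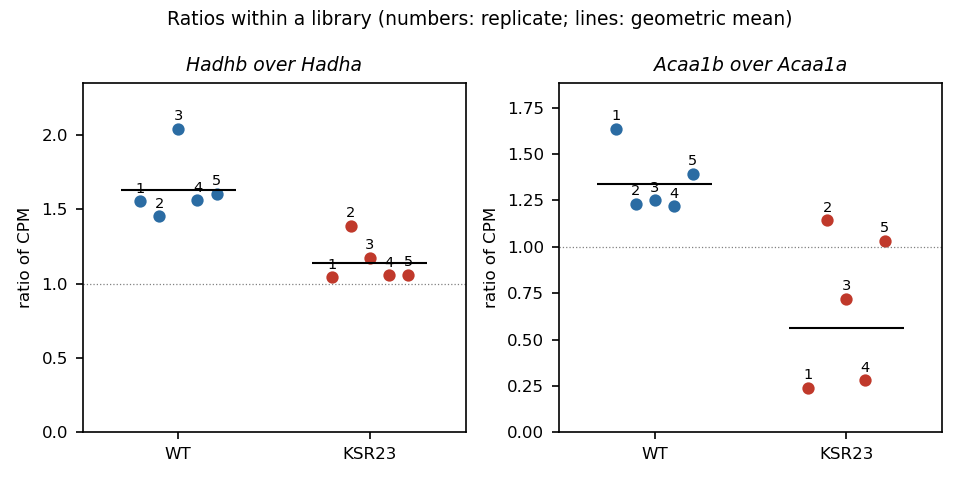
Ratio of CPM within a library (vertical axes, linear, from 0) for Hadhb over Hadha and for Acaa1b over Acaa1a, with 1 point for each library marked by its replicate number and a line at the geometric mean of each group. No KSR23 point reaches the lowest WT point in either panel, which is 1.45 for Hadhb over Hadha and 1.22 for Acaa1b over Acaa1a.

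The auxiliary enzymes move double bonds so that unsaturated fatty acids can enter the cycle. Eci2, an enoyl-CoA isomerase of mitochondria and peroxisomes, was measured at 345, 259.5, 274, 292 and 314 CPM in WT and at 103, 157, 213, 120.4 and 185 CPM in KSR23. The groups did not overlap, and Eci2 fell by 0.93 on the log2 scale (SE 0.27, adjusted p = 0.00561, and 0.0156 by the quasi-likelihood test). Eci1, the mitochondrial isomerase, was measured at 30.6, 223, 227, 142 and 64.8 CPM in WT and at 81.9, 89.2, 16.7, 65.4 and 37.1 CPM in KSR23 (log2 fold change -1.24, SE 0.55, adjusted p = 0.107). WT replicate 1 lay below 4 KSR23 libraries, and without that library Eci1 was called lower (-1.50, adjusted p = 0.0208). Over all alternatives the adjusted p of Eci1 ran from 1.08e-05 to 0.574. Decr1, the dienoyl-CoA reductase, ranged from 217 to 264 CPM in WT and from 118 to 262 CPM in KSR23 (-0.48, SE 0.28, adjusted p = 0.247). Without KSR23 replicate 3 Decr1 was called lower (-0.68, adjusted p = 0.0425), while over all alternatives its adjusted p ran from 0.00735 to 0.874.

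Among the peroxisomal enzymes 1 of 5 members fell. Acaa1b, a thiolase, was measured at 10.9, 82.1, 118, 52.6 and 32.2 CPM in WT and at 18.2, 11.3, 4.21, 12.2 and 6.13 CPM in KSR23. WT replicate 1 lay below 3 KSR23 libraries, and the other WT libraries lay above all of them. It fell by 2.50 on the log2 scale, the largest change of the members (SE 0.56, adjusted p = 0.000402, and 0.0132 by the quasi-likelihood test). Its near copy Acaa1a was measured at 6.66, 66.6, 94.3, 43.1 and 23.1 CPM in WT and at 75.7, 9.87, 5.84, 43.5 and 5.93 CPM in KSR23, an overlap of almost the whole range (-0.73, SE 0.76). Both lie on chromosome 9, Acaa1b at 119148023 to 119157093 on the minus strand and Acaa1a at 119339676 to 119350299 on the plus strand. Of their 75-base stretches, 37.8% of Acaa1b and 27.3% of Acaa1a also occur in another gene, mostly in each other or in a gene overlapping on the opposite strand (Dlec1 and Myd88), so how reads divided between them is uncertain. Ehhadh and Hsd17b4, the bifunctional enzymes of the middle steps, ranged from 149.6 to 246 against 70.9 to 203 CPM (-0.73, adjusted p = 0.108) and from 202 to 231 against 115 to 208 CPM (-0.48, adjusted p = 0.164). Acox2, the oxidase for branched chains and bile acid precursors, ranged from 11 to 18.7 CPM in WT and from 8.19 to 12.4 CPM in KSR23 (-0.58, adjusted p = 0.154). None of these 3 was called, and their groups overlapped. Without KSR23 replicate 3 Ehhadh was called lower (-0.96, adjusted p = 0.0129).

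Acat1 had the smallest adjusted p of the members. It encodes the mitochondrial acetoacetyl-CoA thiolase, which works in ketone body formation and use and in isoleucine breakdown, and lies on chromosome 9 (53580522 to 53610382, minus strand). Acat1 was measured at 1062, 1646, 1425, 1385 and 1162 CPM in WT replicates 1 to 5 and at 284, 349.7, 323, 282 and 309.7 CPM in KSR23. The lowest WT library was far above the highest KSR23 library, and the means were 1336 ± 229.9 and 309.6 ± 28.3 CPM (SD, n = 5 each), a ratio of 4.32. The log2 fold change was -2.11 (SE 0.23, adjusted p = 4.63e-16, and 3.68e-05 by the quasi-likelihood test). It was -2.08 with replicates 1 to 3 alone, with an adjusted p of 0.00125 by the likelihood ratio and 0.0643 by the quasi-likelihood test. None of its 75-base stretches occur in another gene. Bdh1, which interconverts acetoacetate and beta-hydroxybutyrate, was measured at 431, 472, 223, 471 and 396 CPM in WT and at 239.9, 314, 404, 262 and 351 CPM in KSR23 (-0.34, SE 0.28, adjusted p = 0.444). WT replicate 3 lay below all KSR23 libraries and the other WT libraries overlapped with KSR23 replicate 3.

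Of other genes of ketone body metabolism and transport, Oxct1 and Aacs were called higher. Oxct1, which returns ketone bodies to the CoA pool in tissues that burn them, was measured at 10.2, 14.2, 22.4, 14.2 and 11.9 CPM in WT and at 42.4, 56.3, 15.1, 50.4 and 40.6 CPM in KSR23. In 4 of 5 KSR23 libraries Oxct1 was above all WT libraries, with replicate 3 inside the WT range, and it rose by 1.49 on the log2 scale (SE 0.38, adjusted p = 0.00149, and 0.0127 by the quasi-likelihood test). Aacs, which activates acetoacetate in the cytosol for lipid synthesis, was measured at 2.82, 20.6, 14.9, 12 and 4.62 CPM in WT and at 44.1, 70.3, 4.57, 50.6 and 35.1 CPM in KSR23. KSR23 replicate 3 again lay within the WT range, and Aacs was called higher by the likelihood ratio test only (1.90, SE 0.63, adjusted p = 0.0242, and 0.0695 by the quasi-likelihood test). That call was lost without WT replicate 1, 4 or 5 or KSR23 replicate 2 or 4 (adjusted p from 0.0533 to 0.0832). The cytosolic thiolase gene Acat2 ranged from 36.8 to 62.7 CPM in WT and from 56.4 to 130 CPM in KSR23 (0.69, SE 0.30, adjusted p = 0.0999). Without KSR23 replicate 1 Acat2 was called higher (0.86, adjusted p = 0.0219). Bdh2 (-0.51), Hmgcll1 (-0.30, at most 0.412 CPM in any library) and the monocarboxylate carriers Slc16a1 (-0.12) and Slc16a7 (-0.40) were not called.

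The acyl-CoA thioesterases release the fatty acid from CoA and both members fell. Acot2, of mitochondria, was measured at 5.76, 7.92, 10.2, 7.69 and 7.51 CPM in WT and at 4.28, 2.93, 4.89, 4.04 and 3.92 CPM in KSR23, with no overlap (-0.96, SE 0.29, adjusted p = 0.00895, and 0.0162 by the quasi-likelihood test). Acot1, of the cytosol, was measured at 14.8, 24.6, 105, 17.7 and 33.1 CPM in WT and at 16, 4.19, 5.45, 9.99 and 6.55 CPM in KSR23 (-2.21, SE 0.56, adjusted p = 0.00186, and 0.0216 by the quasi-likelihood test). WT replicate 3 alone held over 100 CPM, and WT replicate 1 lay below KSR23 replicate 1. Without WT replicate 3 the log2 fold change of Acot1 was -1.42 (adjusted p = 0.0146). The genes are neighbours on chromosome 12 (Acot2 at 83987861 to 83993873 and Acot1 at 84009490 to 84018371, both on the plus strand), and 21.2% of the 75-base stretches of Acot2 and 26% of those of Acot1 also occur in another gene of the cluster, so their counts are uncertain.

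Of the regulators, Ppargc1a fell and the other members were not called. Ppargc1a encodes the coactivator PGC-1-alpha, which drives mitochondrial biogenesis and fatty acid oxidation genes. It was measured at 27.4, 16.9, 15.3, 24.1 and 28.2 CPM in WT and at 4.51, 10, 9.18, 9.19 and 10.1 CPM in KSR23, with no overlap, and fell by 1.38 on the log2 scale (SE 0.33, adjusted p = 0.000617, and 0.00686 by the quasi-likelihood test). Per kilobase of exon its mean level was the lowest of the members in both groups (3.46 CPM per kb in WT and 1.33 CPM per kb in KSR23). Ppara, which encodes PPAR-alpha, was measured at 19.0, 17.5, 22.4, 16.9 and 20.5 CPM in WT and at 12.2, 18.3, 25.2, 12.4 and 20.5 CPM in KSR23. The KSR23 values of Ppara spanned the whole WT range (-0.12, 95% interval -0.71 to 0.47). Pdk4, which turns off pyruvate dehydrogenase when fat is burned, varied from 16.7 to 64.2 CPM within WT and from 10.6 to 85.1 CPM within KSR23 (-0.02, 95% interval -1.05 to 1.01).

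Libraries of the same group differed strongly for some members. The levels of 8 (Cpt2, Acadl, Etfa, Eci1, Acaa1a, Acaa1b, Acot1 and Pdk4) varied over 3-fold within both groups, as did 20.5% of the 9737 genes with a mean above 5 CPM. All 8 were lowest in WT replicate 1, and 7 of the 8 were lowest in KSR23 replicate 3. The other 24 members leaned the other way in KSR23, where 17 were highest in replicate 3 and 19 were lowest in replicate 1. In WT, 12 of the 24 were highest in replicate 1 and 15 were lowest in replicate 3. Over the 9737 genes, the first component of the deviations from the group means held 71.7% of the variance within groups, with WT replicate 1 and KSR23 replicate 3 at one end (-0.48 and -0.57) and KSR23 replicate 1 and WT replicate 3 at the other (0.37 and 0.30). What this component stands for was not tested.

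**Figure D4:**
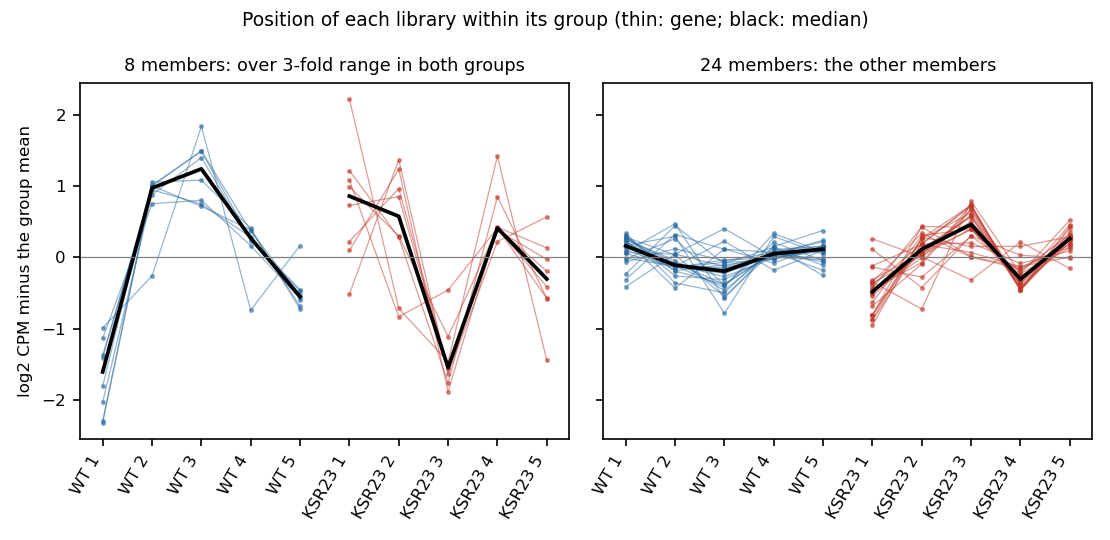
Log2 CPM of each library minus the mean of its group (vertical axis, log2 scale), for the 8 members that varied over 3-fold within both groups (left) and the other 24 (right), with thin lines for genes (blue WT, red KSR23) and black lines for the median over genes. The 8 members dip in WT replicate 1 and KSR23 replicate 3, while the 24 rise in KSR23 replicate 3.

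When that component was added to the model as a covariate, a choice made after the data were seen, 20 members were called lower and 0 higher, and 0 members were higher at an unadjusted p under 0.05. The same model called 17.7% of all genes lower and 19.2% higher. The 11 members added were Acadm, Etfdh, Hadha, Echs1, Hadh, Decr1, Eci1, Acox2, Ehhadh, Hsd17b4 and Acaa1a, with log2 fold changes from -0.48 to -1.09. The component was taken from the same libraries, so the p-values of this model are too small. With replicates 1 to 3 alone and their own first component, 7 members were called lower and 0 higher, where 5.46% of all genes were called lower and 6.8% higher. Acsl1, Acsl5, Cpt1a, Cpt2, Slc25a20, Acadvl, Acadl, Acads, Etfa, Bdh1, Ppara and Pdk4 were called under neither model.

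Outside the members, genes of the pathway were called in both directions, as were genes at large. Of all genes tested, 18.5% were called by the likelihood ratio test, 8.76% lower and 9.73% higher. Of 13 other mitochondrial genes tested (of 14 listed), 4 were called lower and 1 higher (38.5% called), with a median log2 fold change of -0.22. The lower genes were Acad12 (-1.12), Mlycd (-1.05), Ech1 (-1.0) and Acad10 (-0.90), and Acadsb, of branched-chain amino acid breakdown, was higher (1.02). Ech1, a dienoyl-CoA isomerase, was the most abundant of these with 966, 727, 824, 828 and 936 CPM in WT and 262, 421, 638, 315 and 505 CPM in KSR23. Its groups did not overlap. Mlycd, which removes the malonyl-CoA that inhibits Cpt1a, was called by the likelihood ratio test only (adjusted p = 0.0438, and 0.0675 by the quasi-likelihood test). The call of Mlycd was lost without any 1 library other than KSR23 replicate 3 (adjusted p from 0.0577 to 0.133). That of Acad12 was lost without WT replicate 1, 4 or 5 or KSR23 replicate 1, 2 or 4 (0.0521 to 0.0724), that of Acad10 without replicate 2 or 4 of either group (0.0584 to 0.0938), and that of Acadsb without WT replicate 3 or KSR23 replicate 5 (0.0505 and 0.0632).

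Of other peroxisomal genes, Phyh, the first enzyme of phytanic acid breakdown, was lower (-0.97, SE 0.25, adjusted p = 0.00136).

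Of 16 other acyl-CoA synthetases and thioesterases, 3 were called higher (Acsl4 1.40, Acot9 1.29 and Acot11 1.27) and 3 lower (Acot3 -2.86, Acsl6 -1.47 and Acot13 -1.09). These were 37.5% of the list, against 18.5% of all genes, and the median of the list was -0.44. Acot3 lies in the same cluster as Acot1 and Acot2, and was measured at 3.65, 1.91, 12.9, 3.02 and 4.47 CPM in WT and at 1.34, 0.355, 0.159, 1.26 and 0.395 CPM in KSR23, with no overlap. Without WT replicate 3 the log2 fold change of Acot3 was -2.18 (adjusted p = 0.00331). Acsl6, at 0.119 to 1.54 CPM, was called by the likelihood ratio test only (adjusted p = 0.0407, and 0.0834 by the quasi-likelihood test), and its call was lost without any 1 library other than WT replicate 2 or 3 (adjusted p from 0.0567 to 0.201).

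Of 10 other PPAR-alpha target genes tested (of 12 listed), 5 were called lower and 1 higher by the likelihood ratio test (60%, against 18.5% of all genes). By the quasi-likelihood test 3 were called lower and 1 higher. Cyp4a10, a fatty acid omega-hydroxylase, was measured at 51.1, 95.5, 60.5, 81.6 and 49.8 CPM in WT and at 0.128, 8.64, 17.0, 6.71 and 16.5 CPM in KSR23 (-2.79, SE 0.72, adjusted p = 0.00332). Fabp1, the liver-type fatty acid binding protein, was measured at 16178, 7739, 17669.5, 11225 and 16733 CPM in WT and at 3172, 7410.4, 10660.2, 4674 and 8617 CPM in KSR23, where replicate 3 and replicate 5 lay above WT replicate 2. It was called by the likelihood ratio test only (-1.01, SE 0.36, adjusted p = 0.0351, and 0.0822 by the quasi-likelihood test). Its call was lost without WT replicate 1, 3, 4 or 5 or KSR23 replicate 1, 2 or 4 (adjusted p from 0.0638 to 0.130). Ucp3 and Cyp4a31 had 0 counts in each KSR23 library and at most 10 and 7 counts in any WT library, which makes them at least 1.65-fold and 1.44-fold lower against a floor of 3 counts per library. Cyp4a31 also had 0 counts in WT replicate 1 and was called by the likelihood ratio test only (adjusted p = 0.0015, and 0.0506 by the quasi-likelihood test). Without WT replicate 3 Cyp4a31 no longer reached 5 counts in any library and was not tested, and the same held for Ucp3 without WT replicate 1. The median of the list was -0.79 as fitted and -0.62 with these genes at their bounds. Vnn1, a pantetheinase, was higher (1.17, SE 0.32, adjusted p = 0.00334).

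**Figure D5:**
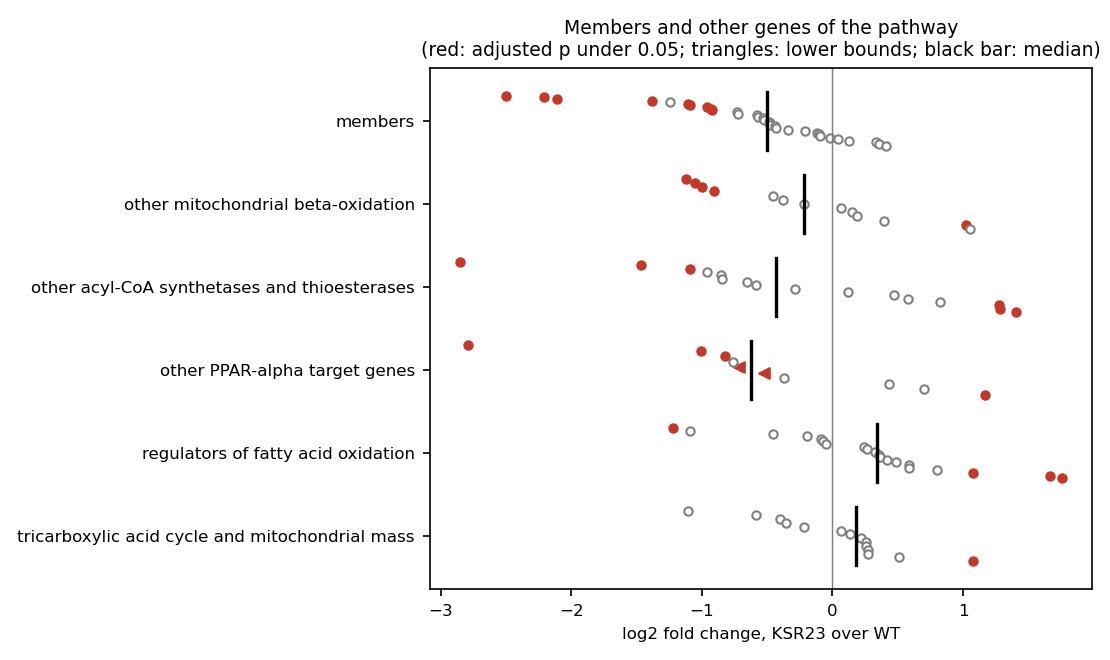
Log2 fold change of KSR23 over WT (horizontal axis, log2 scale) for the members and for 5 lists of other genes, 1 point per gene, with red for adjusted p under 0.05 by the likelihood ratio test, triangles for Ucp3 and Cyp4a31 at their lower bounds and a black bar at the median of each list with these bounds. The medians run from -0.62 for other PPAR-alpha targets to 0.34 for the regulators.

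Of 20 other regulators, 3 were called higher and 1 lower (20%, near the 18.5% of all genes), with a median of 0.34. Prkaa2, the alpha2 catalytic subunit of the energy sensor AMPK, was measured at 14.4, 18.8, 19.8, 15.7 and 16.8 CPM in WT and at 65.5, 57.9, 48.0, 58.4 and 59.1 CPM in KSR23, with no overlap (1.76, SE 0.25, adjusted p = 1.24e-09, and 9.60e-05 by the quasi-likelihood test). Ppard, the PPAR-delta gene, was higher at low level (0.739 ± 0.197 against 2.36 ± 0.744 CPM, SD, n = 5 each), with a log2 fold change of 1.67 and an adjusted p of 0.000153 by the likelihood ratio test. Hnf4a, a transcription factor of enterocytes and hepatocytes, rose by 1.08 on the log2 scale (SE 0.29, adjusted p = 0.00281). Sirt3, the mitochondrial deacetylase, fell by 1.22 (SE 0.29, adjusted p = 0.000438). Of 14 genes of the tricarboxylic acid cycle and mitochondrial mass, 1 was called (7.14%, against 18.5% of all genes). It was Cs, which encodes citrate synthase and was higher (401, 291, 269.6, 342 and 370.0 CPM in WT, 484, 846, 825, 569.6 and 813 CPM in KSR23, log2 fold change 1.08, adjusted p = 0.000667). The median of that list was 0.18, and the other 13 genes, among them Vdac1, Tomm20 and Sdha, did not pass the test.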

How the data were processed

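Jejunum RNA for 5 WT and 5 KSR23 libraries was primed with oligo-dT, amplified with a low-input PCR kit and read from one end over 75 bases. The authors mapped the reads to mm10 (TopHat2 2.1.0) and deposited counts per gene (HTSeq 0.6.1p1), unnormalized whole numbers for 24062 symbols. Reads with several alignments entered no gene, the strand setting is not given in the sources used here, and no molecular identifiers were used, so floors cover counting error only. Library totals ran from 25.5 to 60.9 M, and 3 counts corresponded to 0.0492 to 0.118 CPM.

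Groups were taken from the sample titles. Counts were scaled by the trimmed mean of M-values (TMM) and compared in edgeR 4.0.16 (R 4.3.3) by the gene-wise likelihood ratio test, the test that the study names, on all 10 libraries with group as the only term and on the 17632 genes that reached 5 counts in some library. The filter of the study can also be read as 5 or more in each library (13181 genes). P-values were adjusted over all genes tested by the Benjamini-Hochberg method, and the quasi-likelihood F test is given beside. Log2 fold changes are KSR23 over WT, SE come from the model, intervals are 1.96 SE on each side, and CPM use TMM-scaled totals. Totals and ratios were compared by two-sided exact permutation over 252 splits. The procedure was tested on simulated counts drawn independently for each gene and library. These lack the component shared within groups, so they do not check the p-values of these data.

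Alternatives were DESeq2 1.42.0, RLE size factors, totals alone, other filters, a replicate block, replicates 1 to 3 alone and leaving out each library. The first component within groups, the ratios and replicates 1 to 3 with the quasi-likelihood test were added after seeing the data. All members were named, with the called genes of 7 other lists (at most 4 in each direction by size) and the ketone body genes, and some genes of the ketone body, peroxisomal and leukocyte lists are not reported here. The members and lists were chosen with earlier results of these data known. Positions and exon lengths are from GENCODE mouse M21 (mm10), and promoter windows from RefSeq (GRCm38.p6).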

Additional observations from a re-analysis of the deposited data

Results flagged for a closer look

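Over the 32 members, each group of 5 libraries was searched for a library standing far from the others of its group on log2 CPM, and 2 of 64 groups held one, where chance would flag about 3.2. Bdh1 in WT replicate 3 had a log2 CPM of 7.80, while the nearest WT library had 8.63 (223 against 396 CPM). Ppargc1a in KSR23 replicate 1 had a log2 CPM of 2.19 from 317 counts, while the nearest KSR23 library had 3.21 (4.51 against 9.18 CPM). Without the first of these libraries Bdh1 had a log2 fold change of -0.49 (adjusted p = 0.206), and without the second Ppargc1a had one of -1.16 (adjusted p = 0.00252, likelihood ratio test of edgeR).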

How the results depend on the processing

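The number of members called lower was 7 to 13 under the quasi-likelihood test, DESeq2, RLE size factors, totals alone, both other filters, the replicate block and the leaving out of any 1 library (8 to 13), against 9 as reported. It was 1 with replicates 1 to 3 only, 0 with these and the quasi-likelihood test, and 20 with the component within groups as a covariate. No member was called higher under any of these. The number of all genes called under RLE size factors, totals alone and the other filters is not given here. The number of all genes called, 3261 as reported, was 579 with replicates 1 to 3 only, 140 with these and the quasi-likelihood test, 6500 with the covariate and 2115 with replicates 1 to 3 and the covariate, and it ran from 2370.0 to 3802 when 1 library was left out. Replicates 1 to 3 hold fewer samples, and the covariate removes variance within groups by construction. The median of the members ran from -0.64 to -0.35 when 1 library was left out. Uncalled members that changed sign were Acsl5 (0.068 with replicates 1 to 3 by either test, -0.30 to 0.13 with 1 library left out), Acadl (-0.18 and -0.24 to 0.46), Etfa (-0.42 to 0.20 with 1 library left out), Ppara (-0.28 to 0.035) and Pdk4 (-0.41 to 0.22, and 0.11 with the covariate). With the replicate block, Hadhb (-1.01, adjusted p = 0.0572) and Acot2 (-0.95, adjusted p = 0.0616) lost their calls, all genes called were 2202 and no other member's call changed. The deviations of same-numbered libraries correlated at -0.74, 0.41, -0.69, 0.36 and 0.49, so the numbers did not pair the libraries. Without WT replicate 2 the median of all genes moved from 0.03 to 0.11. Genes below about 0.1 CPM, such as Ucp3, are limited by depth.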
